A study of Mus musculus with 2 samples.

Results

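Mir103-1, Mir103-2 and Mir107 are the 3 mouse loci of the miR-103/miR-107 family, and they were taken here by GENCODE symbol from the 1973 microRNA gene rows of the count tables. All 3 had a row, and all 3 passed the minimum of 10 counts over both libraries. The data came from midbrain, the vesicle between forebrain and hindbrain, of embryos of mouse strain B6NCrl at embryonic day 13.5. Small RNA under 30 nt was sequenced as microRNA-seq. The series has 1 group of 2 biological replicates, each a healthy tissue sample pooled from male and female embryos, with no genetic change or treatment named in the labels. Both samples carry 1 donor record, so differences between them measure the spread between these samples, which may be partly technical. With no other tissue, age or treatment, the comparisons are between the copies and between the libraries.

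MicroRNAs are cut from a hairpin as a duplex of a 5p and a 3p arm, and bases 2 to 8 of the retained arm, the seed, select messenger RNAs for repression. In miR-103/miR-107 the 3p arm is the one usually retained. Each gene of the family sits in an intron of a pantothenate kinase gene (Pank), whose enzymes carry out the first and rate-limiting step of coenzyme A synthesis. The family is known for lowering Dicer, the enzyme that makes mature microRNAs, in human cancer cells, and for reducing insulin sensitivity in mouse liver and fat.

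The mature 3p arms are shown first because they bear on which reads can be placed at a single copy. They are from RefSeq on GRCm38.p6, 5′ to 3′, and capitals mark the seed.
miR-103-3p, made by both Mir103-1 and Mir103-2: aGCAGCAUuguacagggcuauga
miR-107-3p, made by Mir107: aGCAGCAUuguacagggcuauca
Both arms are 23 bases long with the seed GCAGCAU, which no other mature sequence in the RefSeq table carries. The only difference is G22C, counted from 1 at the 5′ end with the miR-103 base first.

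The 5p arms separate all 3 loci, and are shown for that reason, again with bases 2 to 8 in capitals.
miR-103-1-5p: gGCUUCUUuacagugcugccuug
miR-103-2-5p: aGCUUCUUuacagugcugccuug
miR-107-5p: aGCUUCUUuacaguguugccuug
Mir103-1 differs from Mir103-2 by G1A, and Mir103-2 differs from Mir107 by C16U. From base 2 onward the 5p arms of both miR-103 copies are the same.

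The whole hairpins show the arms, in capitals, in their flanks.
Mir103-1: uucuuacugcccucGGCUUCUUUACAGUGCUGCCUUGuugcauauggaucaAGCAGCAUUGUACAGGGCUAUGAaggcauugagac
Mir103-2: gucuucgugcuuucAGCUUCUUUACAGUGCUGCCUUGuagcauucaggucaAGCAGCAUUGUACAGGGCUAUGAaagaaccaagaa
Mir107: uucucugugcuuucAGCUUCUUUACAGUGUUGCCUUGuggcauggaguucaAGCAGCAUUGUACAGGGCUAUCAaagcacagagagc
In each hairpin the 5p arm covers bases 15 to 37 and the 3p arm bases 52 to 74, with 14 bases between them. Identity over the aligned hairpin was 80.2% for Mir103-1 and Mir103-2, 83.9% for Mir103-2 and Mir107, and 80.9% for Mir103-1 and Mir107. The longest exact run shared by Mir103-1 and Mir103-2 was 27 bases and takes in the whole 3p arm. Mir107 shared at most 24 bases in a row with either.

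These letters set which reads can be told apart. A read that starts at base 1 of miR-107-3p lies in no other of the 1005 RefSeq hairpins once it is 22 bases long. A read that starts at base 1 of miR-103-3p has to reach 25 bases, 2 past the mature end, before it fits only 1 of its copies. From base 1 of the 5p arms, 15 bases are enough for Mir103-1 and 16 for Mir103-2 and Mir107. The tables set reads with several places aside in 1 row, which held 3827354 reads of replicate 1 (34.4%) and 2590773 of replicate 2 (37.7%). That row names no locus, so how many miR-103-3p reads it holds was not tested, and the counts of Mir103-1 and Mir103-2 are not the level of mature miR-103. The aligner's rules are not stated in the labels or notes, and the search covered hairpins and not the genome.

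On mm10, Mir103-1 (ENSMUSG00000065553.1) lies at chr11:35782396-35782481 on the plus strand, in an intron of Pank3 (ENSMUSG00000018846.8). Mir103-2 (ENSMUSG00000065563.1) lies at chr2:131288052-131288137 on the plus strand, in an intron of Pank2 (ENSMUSG00000037514.17). Mir107 (ENSMUSG00000065594.1) lies at chr19:34820687-34820773 on the minus strand, in an intron of Pank1 (ENSMUSG00000033610.16). Every hairpin is on the strand of its host, and no exon of a coding transcript that spans it overlaps it (1 transcript of Pank3, 2 of Pank2 and 3 of Pank1).

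The place in the host is the same in all 3 genes. In the principal transcript of each, with 7 exons, the hairpin lies in intron 5. The hairpin begins 688 bases after exon 5 in Pank3, 454 in Pank2 and 326 in Pank1. The introns differ more in length, at 1740 bases in Pank3, 5801 in Pank2 and 7282 in Pank1. The host genes span 21802, 36694 and 72516 bases in the same order. The tables hold microRNA genes, and none of the 3 Pank genes has a row, so the messenger RNA of the hosts was not analysed here.

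**Figure D1:**
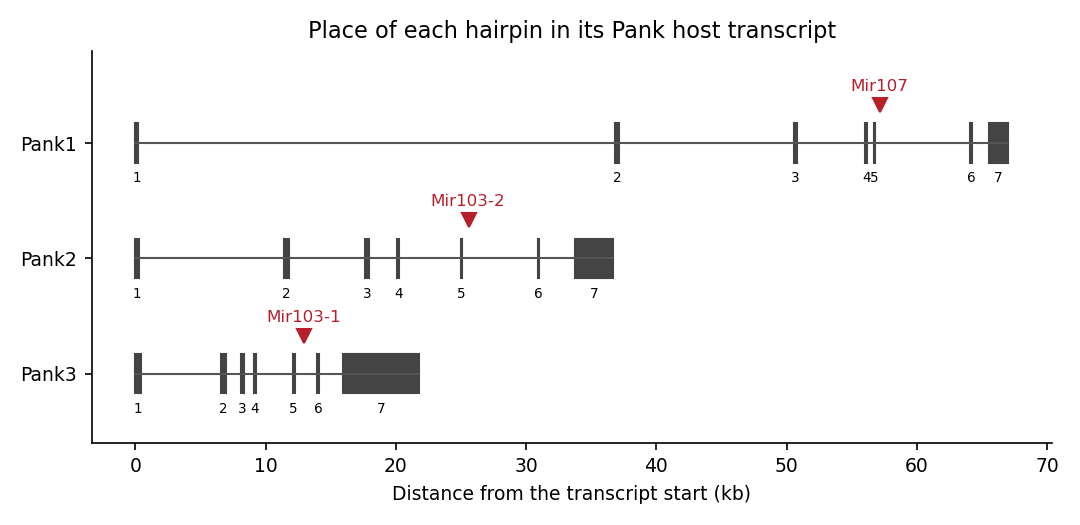
Exons (numbered boxes) of the principal transcript of each Pank host, drawn to scale by distance from the transcript start in kb, with the hairpin as a red triangle. Each hairpin lies in intron 5, between exons 5 and 6 of 7, although the host genes span 21802 (Pank3), 36694 (Pank2) and 72516 (Pank1) bases.

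Replicate 1 held 5093743 same-strand counts over all gene rows and replicate 2 held 2935841. Levels are CPM, counts per 1000000 of these totals, and are not divided by length, since the hairpins are 86 or 87 nt long and 1 read is 1 short RNA. Taken as 3 counts, the limit that a count of 0 allows was 0.589 CPM for replicate 1 and 1.02 CPM for replicate 2. Intervals are 95% exact Clopper-Pearson intervals, and intervals and limits cover counting error only. Of the neural markers, Mir149, Mir135b, Mir92b and Mir137 each lay between 6397 and 19218 CPM. Mir128-1 (529 and 534 CPM) and Mir128-2 (341 and 387 CPM) were lower, and the Mir9 and Mir124a loci lay between 1.57 and 401 CPM. Mature sequences of Mir128, Mir9 and Mir124a are each made by several loci. Markers of other cells were also present, with the endothelial Mir126a at 16256 and 21170 CPM, the mural list at 5051 and 6702 CPM in sum, the Hox list of hindbrain and cord at 620 and 711, the leukocyte list at 319 and 349, the erythroid list at 93.4 and 86.9, the liver Mir122 at 58.9 and 139 CPM, and the muscle list of 5 rows at 14.7 and 10.9 CPM in sum. Nearly all of the mural sum was Mir143 (4991 and 6626 CPM), with Mir145a at 60.1 and 76.0 CPM. In the Hox list Mir196a-2 had 6 and 2 counts and Mir196a-1 had 1 and 0. Nearly all of the muscle sum was Mir206 (75 and 31 counts), with Mir133b at 0 and 1 count and Mir1a-1, Mir133a-1 and Mir133a-2 at 0 in both. Less of a cell type and less of its RNA per cell cannot be told apart in this tissue, and the part of other cells in the values below was not tested.

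Mir107 carried nearly all of the counts assigned to the family. It had 11635 counts in replicate 1 and 6030 in replicate 2. These were 2284 CPM (2243 to 2326) and 2054 CPM (2002 to 2106), a mean of 2169 ± 163 CPM (SD, n = 2). By mean CPM it stood 66th of the 1973 rows, and both libraries placed it alike, 66th and 67th. Its level was 0.228% and 0.205% of all same-strand counts.

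Mir103-2 was far lower. It had 274 counts in replicate 1 and 84 in replicate 2, which were 53.8 CPM (47.6 to 60.6) and 28.6 CPM (22.8 to 35.4), a mean of 41.2 ± 17.8 CPM (SD, n = 2). It stood 250th by mean, and the intervals of the libraries did not overlap.

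Mir103-1 was close to the minimum used for the tests. Its 23 counts in replicate 1 and 13 in replicate 2 gave 4.52 CPM (2.86 to 6.78) and 4.43 CPM (2.36 to 7.57), a mean of 4.47 ± 0.0617 CPM (SD, n = 2). That SD is smaller than the counting error of either value. It stood 349th. No opposite-strand count fell on any of the 3 loci in either library.

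The order Mir107, Mir103-2, Mir103-1 was the same in both libraries, and within each library no intervals of neighbours in that order overlapped. Mir107 had 42.5 times the counts of Mir103-2 in replicate 1 (37.7 to 48.0) and 71.8 times in replicate 2 (57.9 to 90.1). Against Mir103-1 the ratios were 506 (337 to 798) and 464 (271 to 872). Mir103-2, whose 3p arm is identical to that of Mir103-1, had 11.9 times its counts in replicate 1 (7.78 to 19.1) and 6.46 times in replicate 2 (3.58 to 12.6). The sequences above show that a full-length miR-107-3p read is distinct and a full-length miR-103-3p read is not. The ratios to Mir107 are therefore ratios of assigned reads and set no order of the mature microRNAs. Mir103-2 over Mir103-1 is likewise a ratio of assigned reads. Which part of each hairpin these reads came from was not tested.

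**Figure D2:**
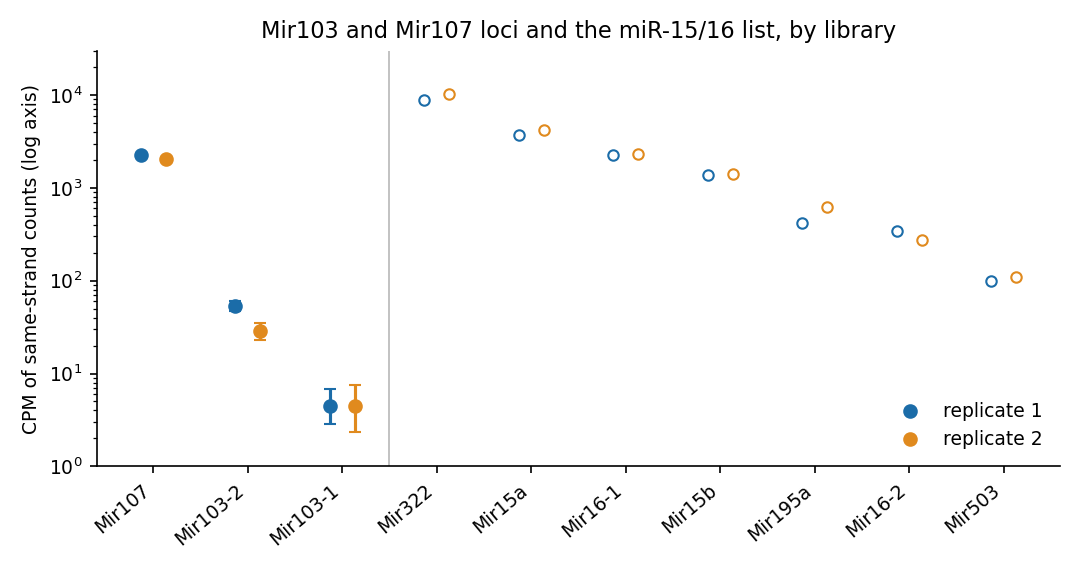
CPM of same-strand counts (log axis) in replicate 1 (blue) and replicate 2 (orange) for the miR-103/miR-107 loci, left of the line with 95% exact Clopper-Pearson intervals, and for the 7 tested loci of the miR-15/16 list as open circles. Mir107 sits at 2284 and 2054 CPM, Mir103-2 between 28.6 and 53.8, and Mir103-1 near 4.5.

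The family held 11932 counts in replicate 1 and 6127 in replicate 2, or 2342 and 2087 CPM, a mean of 2215 ± 181 CPM (SD, n = 2). Mir107 made up 97.5% of them in replicate 1 (97.2 to 97.8) and 98.4% in replicate 2 (98.1 to 98.7). This split differed between the libraries beyond counting error (two-sided Fisher's exact test, p = 6.50e-05). The miR-103 loci together had 297 counts in replicate 1 and 97 in replicate 2, which were 2.49% and 1.58% of the family. Within these, Mir103-2 held 92.3% and 86.6%, a difference that did not pass (two-sided Fisher's exact test, p = 0.105).

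Between the libraries, Mir103-2 differed most of the 3. After TMM scaling, its log2 ratio (replicate 1 over replicate 2) was 0.83 with a 95% exact interval of 0.49 to 1.21, which is 1.78-fold higher in replicate 1. It passed an exact binomial test, conditional on the locus total and with TMM-scaled depths, after Benjamini-Hochberg adjustment over 466 loci (adjusted p = 5.07e-06). Mir107 also passed in the same test, though it was only 1.06-fold higher in replicate 1, with a log2 ratio of 0.09 (0.04 to 0.13) and an adjusted exact binomial p of 0.000595. Mir103-1 had a log2 ratio of -0.03 and did not pass (adjusted exact binomial p = 1). Its interval, -1.08 to 1.07, covers a difference of the size seen at Mir103-2, so its counts do not tell these apart.

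The test compares these 2 libraries and takes in no spread between animals. It called 38.0% of the 466 loci tested, 18.7% higher in replicate 1 and 19.3% higher in replicate 2, so 2 called loci of 3 is no result about the family. With total counts in place of TMM, 61.9% of all called loci were higher in replicate 1, against 49.2%, and the median log2 ratio of all loci moved from -0.0041 to 0.063. The coefficient of variation between the libraries, estimated with edgeR in an intercept-only design, was 0.158.

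Loci of like level put these ratios in scale. Of the 47 other tested loci with a mean within 2-fold of Mir107, 85.1% were called, and 35 had a ratio at least as large in size. Of the 66 other loci within 2-fold of Mir103-2, 27.3% were called. Just 2 of these 66 had a ratio as large in size, Mir448 (52.0 and 88.9 CPM) and Mir1264 (24.3 and 43.9 CPM), both higher in replicate 2 and both named after their values were seen. Around Mir103-1, 7.79% of 77 loci were called.

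**Figure D3:**
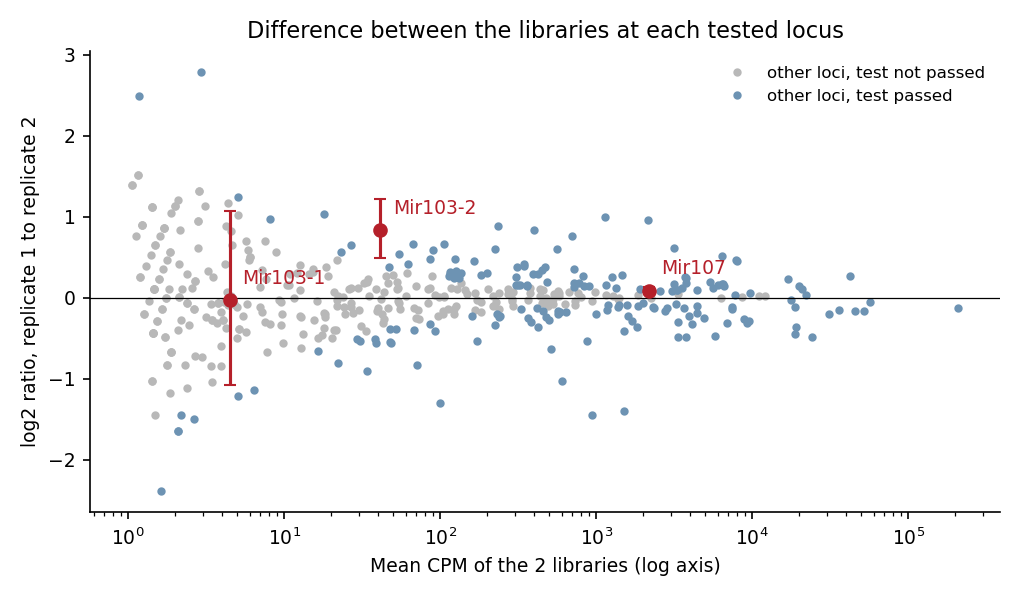
Log2 ratio of replicate 1 to replicate 2 after TMM scaling against mean CPM (log axis) for 466 tested loci, with the miR-103/miR-107 loci in red and their 95% exact intervals. Mir103-2, at 0.83, lies above the band of loci of its level, Mir107 lies at 0.09 among loci of its level, and the interval of Mir103-1 runs from -1.08 to 1.07.

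The loci most like each member over the 2 libraries were found by distance in log2(CPM + 0.5). Nearest to Mir107 were Mir379 of the imprinted Dlk1-Dio3 region (2294 and 2197 CPM, distance 0.10), Mir16-1 (2249 and 2337 CPM, 0.19) and Mir125b-2 (1984 and 1988 CPM, 0.21). Nearest to Mir103-2 were Mir451a, an erythroid microRNA (53.8 and 39.5 CPM, 0.46), Mir362 (50.5 and 39.9 CPM, 0.48) and Mir3078 (37.9 and 30.7 CPM, 0.51). Mir103-1 had the same counts as Mir199a-2, 23 and 13, and lay within 0.06 of Mir7658 and Gm23873, where 1 count is a visible step.

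Bases 1 to 7 of the miR-103/miR-107 3p arms, AGCAGCA, are bases 2 to 8 of the miR-15/16 family, which is known for restraining the cell cycle. The offset is shown with 2 of its members, bases 2 to 8 in capitals.
miR-107-3p: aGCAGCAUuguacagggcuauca
miR-15a-5p: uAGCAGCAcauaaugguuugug
miR-16-5p: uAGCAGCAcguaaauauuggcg
By RefSeq, 11 loci make an arm with AGCAGCA at bases 2 to 8, and 10 of them have a row. Their levels reached from 0 to 9564 CPM in mean. These loci and the miR-15/16 list below are not the same set. Mir6342, Mir6353 and Mir6419, at 0 CPM, are among the 11 but not on the list. Mir503, the tested locus of the list that was not called, is not among the 11.

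The miR-15/16 list, with 9 rows of which 7 were tested, was higher in sum than the miR-103/miR-107 loci, at 17071 and 19191 CPM. Reads set aside as fitting several places are in neither sum, so this is an order of assigned reads. Mir322 led the list (8843 and 10286 CPM), followed by Mir15a (3744 and 4170 CPM), Mir16-1 (2249 and 2337 CPM) and Mir15b (1380 and 1402 CPM). Mir107 thus stood at about the level of Mir16-1 in assigned reads. How many miR-16-5p reads were set aside as fitting several places was not tested. Of the 7 tested loci, 5 had more in replicate 2, 1 had more in replicate 1 and 1 missed the threshold of the exact binomial test. Of all loci 38.0% were called, 19.3% with more in replicate 2 and 18.7% with more in replicate 1. The share called rose with level, to 85.1% within 2-fold of Mir107. The median of these 7 loci was 1391 CPM, so the number called is no result about the list. The list's median log2 ratio was -0.20, against -0.0041 over all tested loci, and Mir15b was no longer called with total counts only or with no filter. The locus higher in replicate 1 was Mir16-2 (339 and 271 CPM), which shares its mature sequence with Mir16-1, as Mir103-2 does with Mir103-1.

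The gap between Mir103-2 and Mir103-1 in assigned counts is set beside the copies of other microRNAs with the same mature sequence at several loci. Of 58 names on a list of such loci, 50 matched a row, 40 were tested, and 21 exceeded 100 CPM in both libraries. The list's Mir92a and Mir7a names matched no row, and the rows Mir92-1, Mir92-2, Mir7-1 and Mir7-2 were not used in their place. The median of the tested ones was 136 CPM, against 53.0 CPM over all tested loci. The matched loci were led by Mir181a-1 (6257 and 7427 CPM), Mir125b-1 (2298 and 2401 CPM), Mir16-1 and Mir181b-2 (2873 and 1406 CPM). Mir92-1, not matched, had 3424 and 2910 CPM. By the test between the libraries, 9 loci were called with more in replicate 1 and 10 with more in replicate 2, and the other 21 were not called, against 18.7% and 19.3% of all loci called in these directions. This split turned to 11 and 8 with total counts only.

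In 17 other sets, at least 2 rows matched by name and all of those were tested. In these sets the highest copy exceeded the lowest by 1.18-fold (Mir125b) to 182-fold (Mir9) in mean CPM, with a median of 2.11-fold. These are gaps in assigned counts, and how far reads of each set can be placed at a single copy was not tested. The 9.21-fold gap between Mir103-2 and Mir103-1 was exceeded in 3 of these sets by mean CPM, Mir181a, Mir181b and Mir9. Outside these sets, the Mir92 copies also lay further apart than the miR-103 copies in both libraries. Mir92-1 had 3424 and 2910 CPM, and Mir92-2 had 225 and 212 CPM. In replicate 2 alone the miR-103 gap was 6.46-fold and that of the Mir16 copies, 8.62-fold, exceeded it too. In sum the miR-103 copies stood at 45.7 CPM, below the 2349 and 1986 CPM of the miR-125b copies and above the 13.3 CPM of the miR-124 copies.

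**Figure D4:**
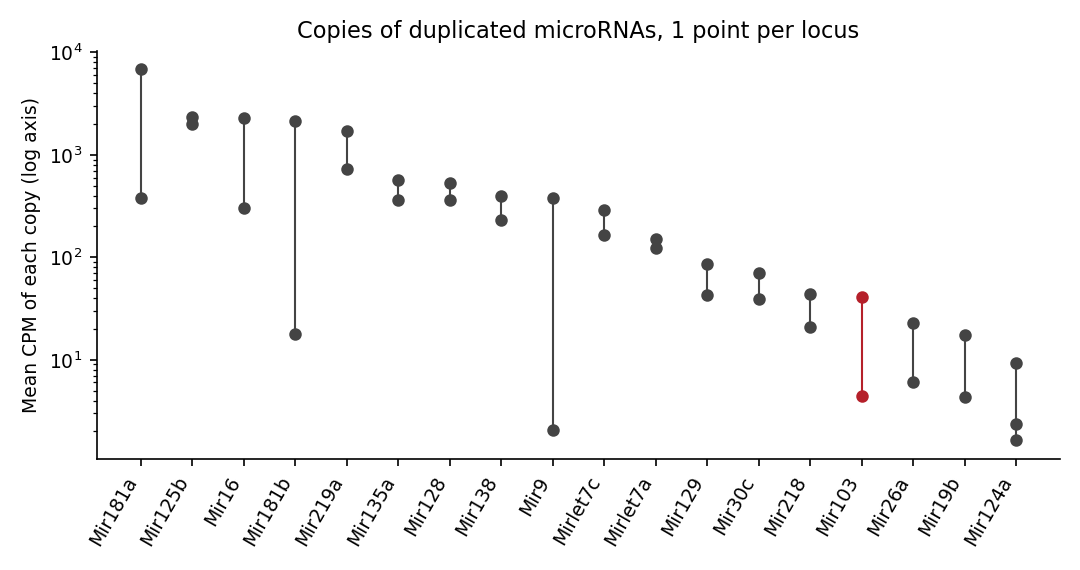
Mean CPM over both libraries (log axis) of each copy of 18 microRNAs made by several loci, with a line joining copies and the miR-103 copies in red. The miR-103 copies lie at 41.2 and 4.47 CPM, a wider gap in mean CPM than in all other sets drawn but Mir181a, Mir181b and Mir9. In replicate 2 alone the Mir16 gap was wider too. The Mir92 copies, not drawn, also lay further apart.

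Rows were also grouped by whether a mature arm lies whole in another hairpin, and medians are over the rows that reached the count minimum. Of the 50 rows with some arm shared, which include Mir103-1 and Mir103-2, 76.0% were tested, with a median of 152 CPM. Of the 831 rows with no arm shared, which include Mir107, 44.5% were tested, with a median of 53.4 CPM. Of the 35 rows with every arm shared, 28.6% were tested, with a median of 113 CPM, and 1057 rows matched no RefSeq mature sequence by symbol. Both miR-103 loci, at 41.2 and 4.47 CPM, lay under the median of their class, and Mir107 lay above that of its class.

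Position inside a coding gene was common as well. Of the 466 tested loci, 252 lie inside a coding gene on the same strand, with introns and exons not told apart. By mean CPM Mir107 was 33rd of these and Mir103-1 was 167th, with Mir103-2 between them. The median was 18.1 CPM for these 252 loci and 126 CPM for the others.

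The family's metabolic role was set beside a list of microRNAs of lipid and insulin metabolism, with 7 rows and 6 tested. Mir107 stood below Mir143 (4991 and 6626 CPM), which is also a mural cell microRNA. It stood above Mir375 of endocrine cells (523 and 1365 CPM), Mir370 (903 and 778 CPM) and Mir33, hosted by the sterol regulator gene Srebf2 (151 and 168 CPM). By the same test 4 of the 6 had more in replicate 2, 1 had more in replicate 1 and 1 was not called, against 38.0% of all loci called. The median of these 6 loci was 500 CPM, and the share called rose with level, so the number called is no result about the list. Their median log2 ratio was -0.35, against -0.0041 over all tested loci. Mir33 was no longer called with total counts only, with no filter or with replicate 1 thinned. Mir370 was the locus higher in replicate 1, as Mir107 and Mir103-2 were.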

How the data were processed

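The authors deposited raw read counts per gene, 1 table for each of the 2 libraries, on mm10 with annotation M4 per the file headers and notes. The aligner, trimming and filters are not stated there. In all 3946 rows the first of 3 count columns equals the sum of the others, so the columns were read as unstranded, same-strand and opposite-strand counts, an inference from the values. Rows for unmapped (16.1% and 15.7% of reads), multimapping, unassigned (3.79% and 3.80%) and ambiguous reads (0) stayed out of library sizes and tests. Counts are per hairpin, so arms were not told apart.

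Symbols and exons came from GENCODE M21 on the same assembly, which matched 1894 of 1973 IDs (1815 with the same version, the members included). Sequences came from RefSeq on GRCm38.p6, where 869 rows had a hairpin by symbol. CPM was taken from same-strand counts of every gene row. The 466 loci that reached 10 counts in sum were tested between the libraries with an exact two-sided binomial test, conditional on the locus total, with depths scaled by edgeR 4.0.16 TMM factors and p adjusted by Benjamini-Hochberg at 0.05 (scipy 1.17.1, R 4.3.3, Python 3.11.15), since 1 group leaves edgeR no contrast. Log2 ratios use a pseudocount of 0.5 CPM. The test was tried on simulated data. Tried in turn were scaling by total counts only, DESeq2 1.42.0 size factors, no filter, unstranded counts, thinning replicate 1, a pseudocount of 1 CPM, multimapping reads in the denominator and each replicate left out.

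The members, lists and rules were chosen with earlier results of these data known. The rule for named loci took the members, the 4 highest matched loci of each list and the 3 loci nearest to each member.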

Additional observations from a re-analysis of the deposited data

How the results depend on the processing

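The ratio of Mir103-2 kept its direction and stayed past the threshold under all 6 alternatives, with log2 ratios from 0.82 to 0.90 and adjusted exact binomial p from 5.62e-07 to 2.32e-05. So did Mir107, from 0.08 to 0.15 and from 1.01e-10 to 0.00528. Mir103-1 passed under none (adjusted p 0.917 to 1), and its log2 ratio turned from -0.03 to 0.025 with total counts only. The number of loci called lay between 162 and 183, against 177. With multimapping reads added to the denominator, means fell to 1198 CPM for Mir107, 23.0 for Mir103-2, 2.47 for Mir103-1 and 1223 for the family, by construction. With unstranded counts Mir103-1 moved to 4.37 CPM, more than its small SD. Leaving out 1 replicate gave 2054 to 2284 CPM for Mir107, 28.6 to 53.8 for Mir103-2, 4.43 to 4.52 for Mir103-1, 2087 to 2342 for the family and 97.5% to 98.4% for the share of Mir107. Ratios need both libraries, so no replicate could be left out of them. No paired analysis was possible because the series has 1 group. The counts of Mir103-1, 23 and 13, limit it to differences of about 2-fold or more.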

Other observations

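In the row of Mir497b, which is on the miR-15/16 list, 3 and 0 counts fell on the same strand and 2350 and 1488 on the opposite strand, in replicates 1 and 2. The loci of the miR-103/miR-107 family had 0 opposite-strand counts in both libraries.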
